A study of Bos taurus and Felis catus with 14 samples.

Results

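The microRNA families mir-9, mir-124, mir-128, mir-129, mir-132, mir-137, mir-138, mir-153 and mir-212 were followed through the predicted precursor sets of cow and cat. Members were the precursors whose name carries 1 of these 9 family numbers, with any letter, copy number or mark for a further member, and with names that begin with the antisense mark left out. This gave 28 of 1305 precursors, 17 of the 810 bovine and 11 of the 495 feline loci. The bovine set was called on 10 small RNA libraries of total RNA from 3 Angus steers, 1 library for each tissue. Retina, optic nerve, iris, penis, bone marrow, submandibular lymph node, oral papillae and dental pulp came from the same steer (8 libraries), while brain stem and corium (the tissue under the hoof) came from another steer each. The feline set was called on 4 libraries, 2 of skin and 2 of muscle, from 3 older neutered male cats of the domestic short hair type, 1 of which gave both tissues. The labels name no treatment, and no age of the steers was found. Brain stem, optic nerve and retina make the bovine set partly one of nervous tissue, while no nervous tissue was sampled from the cats.

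A microRNA is cut from a hairpin precursor. Each arm of the hairpin can give a mature product of about the same size, called 5p or 3p after the arm, and bases 2 to 8 of that product, the seed, guide it to messenger RNAs by pairing. In neurons, mir-9 acts in progenitors and in their differentiation, mir-124 is the most abundant microRNA of the brain and holds back genes of non-neuronal cells, and mir-132 and mir-212 are induced together by neuronal activity through CREB. The other families are known for dampening excitability (mir-128), for limiting dendritic spine size (mir-138) and for a place beside a schizophrenia risk locus (mir-137), and mir-153 lies in genes of secretory granule proteins in other mammals.

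No bovine or feline sequence of these loci was read here, since the sets give positions without letters and no genome of their build was used. To show what these families recognise, human products of the same names are given instead, as listed by the study in a supplementary table and each found in at least 1 established human cell line. That table held 24 human products of these families from 12 loci. They are printed 5′ to 3′ in DNA letters, with the seed in capitals, for the arm known as the main product of most of these families and, for mir-9 and mir-128, for both arms.
hsa-mir-9-1-5p: tCTTTGGTtatctagctgtatga
hsa-mir-9-1-3p: aTAAAGCTagataaccgaaagt
hsa-mir-128-1-3p: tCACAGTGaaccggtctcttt
hsa-mir-128-1-5p: cGGGGCCGtagcactgtctgaga
hsa-mir-128-2-5p: gGGGGCCGatacactgtacga
hsa-mir-129-2-5p: cTTTTTGCggtctgggcttgc
hsa-mir-137-3p: tTATTGCTtaagaatacgcgtag
hsa-mir-138-1-5p: aGCTGGTGttgtgaatcaggccg
hsa-mir-153-1-3p: tTGCATAGtcacaaaagtgatc
hsa-mir-132-3p: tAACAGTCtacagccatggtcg
hsa-mir-212-3p: tAACAGTCtccagtcacggcca
Among the 24 human products there were 18 different seeds, and 1 of them was shared by different families. This was the seed of hsa-mir-132-3p and hsa-mir-212-3p. The rest of these products differed, with 17 of 22 letters the same and the changes A10C, C14T, T17C, T20C and G22A from mir-132 to mir-212, counted from 1 at the 5′ end. The mir-9 copies hsa-mir-9-1 and hsa-mir-9-3 had the same letters on each arm. The mir-128 copies had the same 3p letters and the same 5p seed, and different 5p letters after it. Whether the bovine and feline products have these letters was not examined.

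In the cow all 9 families had a locus, and in the cat 6 of the 9 had 1 or more. The families without a feline locus were mir-124, mir-137 and mir-153. For the 6 families called in both species, the number of loci was the same, with 3 for mir-9, 2 each for mir-128, mir-129 and mir-138, and 1 each for mir-132 and mir-212. The 6 bovine loci without a feline counterpart were the mir-124 loci (3), mir-137 (1) and the mir-153 loci (2).

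**Figure D1:**
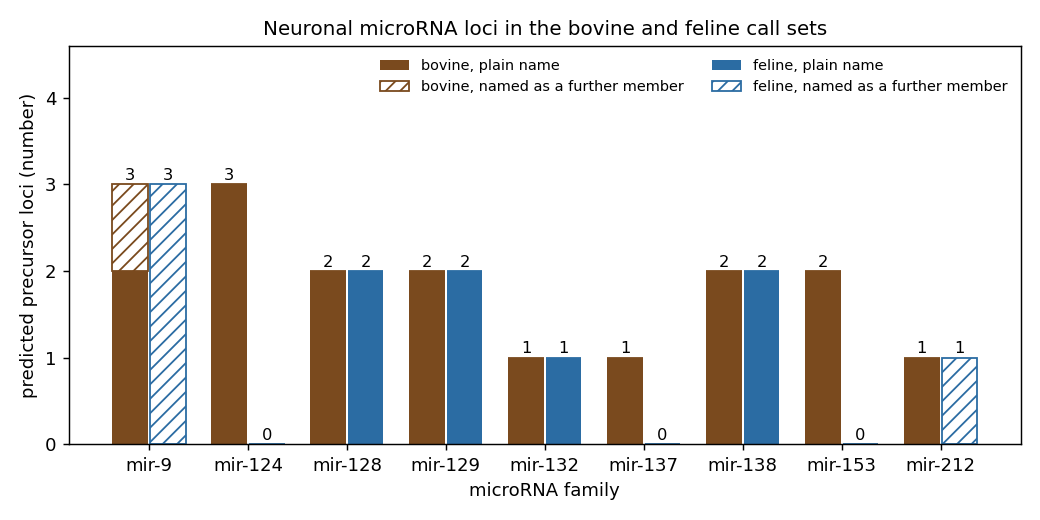
Number of predicted precursor loci (vertical axis) of each neuronal microRNA family (horizontal axis) in the bovine and feline sets, with hatched parts for loci named as further members of a family. The cat equals the cow in 6 families and is at 0 for mir-124, mir-137 and mir-153, and all 3 feline mir-9 loci are hatched.

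A share of families of this size has a wide interval, from 29.9 to 92.5% for 6 of 9 (95% exact Clopper-Pearson interval, counting error only). Over the whole bovine set, 185 of the 302 family numbers also had a feline locus, which is 61.3%. The share of the neuronal families, 66.7%, was close to this background and is no result about these families. The absence of a call is not a measurement of expression. The species differ in the tissues, the number of libraries and the source of the names, and the parts that these have in the difference cannot be told apart.

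Other lists of families were counted in the same way. Both oligodendrocyte families, mir-219 and mir-338, had loci in each species. The 6 families known from retina and other sense organs had 1 locus each in cow and cat (mir-96, mir-182, mir-183, mir-184, mir-204 and mir-211). The 6 families known from muscle (mir-1, mir-133, mir-206, mir-208b, mir-486, mir-499) were also called in both, with 9 bovine and 11 feline loci. A list of 8 further families known in neurons (mir-7, mir-134, mir-135, mir-218, mir-383, mir-488, mir-504 and mir-873) had 13 bovine loci in all 8 families and 7 feline loci in 6 of them. The families of that list without a feline locus were mir-488 and mir-873. In it, mir-7 and mir-135 had 3 bovine loci and 1 feline locus each, while mir-134, mir-218, mir-383 and mir-504 had equal numbers. These lists are short and have the same background of 61.3%, and no difference between them was tested. No value in the sets ties a locus to a library, so the tissue in which a member was read cannot be given from them.

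All 17 bovine members had a product from each arm (100%, interval 80.5 to 100%), against 72.5% of all bovine loci and 81.1% of the bovine loci with a family number. All 11 feline members did so too (interval 71.5 to 100%), against 65.7% of all feline loci and 80.9% of those with a family number. Each interval includes the share of the loci with a family number in its species and lies above the share of all loci. All members have a family number themselves, and no difference was tested. The 34 bovine products were 20 to 23 nt long and the 22 feline products 21 to 23 nt, with a median of 22 nt in both species and in all products of each set.

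**Figure D2:**
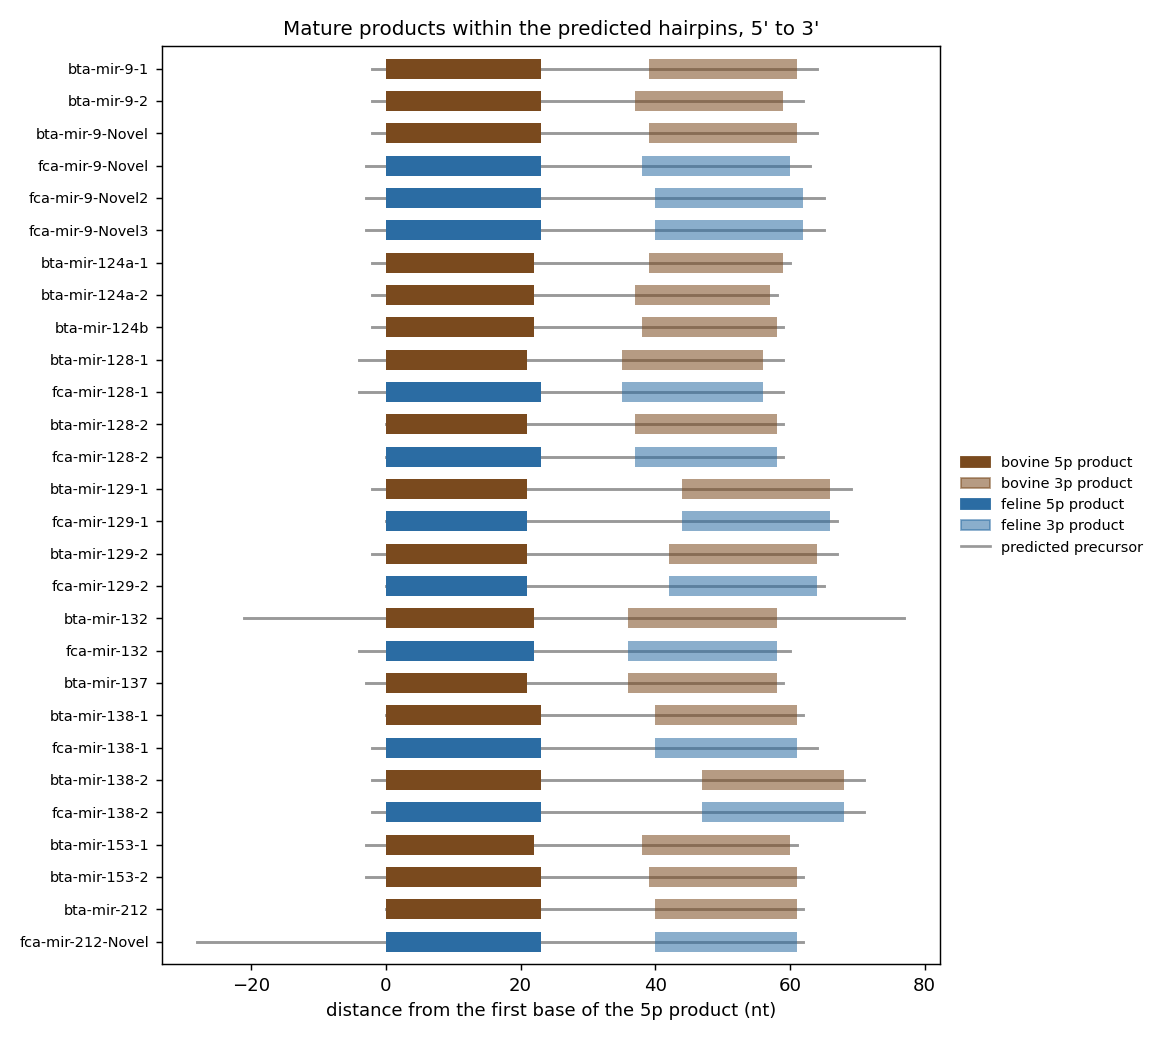
Predicted hairpins of the 28 neuronal loci, aligned at the first base of the 5p product, with distance in nt on the horizontal axis, dark boxes for 5p products, pale boxes for 3p products and a grey line for the precursor. In families called in both species the boxes nearly coincide, with the exceptions of the end of the 5p product in mir-128 and the place of the 3p product in mir-9.

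The mir-9 family, which acts in neural progenitors, had 3 loci in each species. In the cow bta-mir-9-1 lies on chromosome 21 from 21250114 to 21250179 on the plus strand, and bta-mir-9-2 occupies 90554687 to 90554750 of chromosome 7 on the minus strand. The remaining bovine locus lies on chromosome 3 from 14462438 to 14462503 on the plus strand and is the only bovine member whose name marks it as a further member of its family, added by the study to the annotated ones. Its products cover 14462440 to 14462462 on the 5p side (23 nt) and 14462479 to 14462500 on the 3p side (22 nt). These lengths are those of the annotated loci, since all 3 bovine mir-9 loci had 23 nt on the 5p side and 22 nt on the 3p side.

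All 3 feline mir-9 loci were named as further members, and the feline set had no plain mir-9 name. They were a locus on the minus strand of NC_018723.2 (151690418 to 151690483), fca-mir-9-Novel2 on the plus strand of NC_018739.2 (68022445 to 68022512), and fca-mir-9-Novel3 on the minus strand of NC_018728.2 (6527042 to 6527109), where the sequences are named as in the deposited set. Each again had products of 23 nt (5p) and 22 nt (3p). The mir-9 products therefore had the same 2 lengths at all 6 loci of both species.

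The distance between the mir-9 products was not the same in both species. Between the 5p and the 3p product lay 16, 14 and 16 nt at bta-mir-9-1, bta-mir-9-2 and the locus on chromosome 3, and 15, 17 and 17 nt at the locus on NC_018723.2, fca-mir-9-Novel2 and fca-mir-9-Novel3. Each species thus had 1 locus with a shorter distance and 2 with a distance longer by 2 nt, and the feline set of values was the bovine one plus 1 nt. From the first base of the 5p product to the last base of the 3p product, the bovine loci spanned 59, 61 and 61 nt in ascending order and the feline ones 60, 62 and 62 nt. Neighbouring loci match these hairpins to each other in part. The shorter bovine locus, bta-mir-9-2, lay 1361479 nt from bta-mir-3660 and the shorter feline one, that on NC_018723.2, lay 1195767 nt from a further member of mir-3660, each on the same strand. Likewise the bovine locus on chromosome 3 lay 1912110 nt from bta-mir-190b and fca-mir-9-Novel2 lay 1522240 nt from a further member of mir-190. No neighbour shared within 5 Mb in both species was found for bta-mir-9-1 and fca-mir-9-Novel3. Past that limit in the cat, mir-184 lay 5437980 nt from fca-mir-9-Novel3 on the opposite strand. In the cow it lay 4663599 nt from bta-mir-9-1 on the same strand. Among the 133 loci of all families that bear the same name in both species and have both arms, 2 (1.50%) had products of equal length and a distance longer by 1 nt in the cat. The letters of these hairpins were not read, so the difference is given here as a distance alone.

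The mir-124 loci were called in the cow alone. They were bta-mir-124a-1 on chromosome 8 from 9153391 to 9153452 on the plus strand, bta-mir-124a-2 on chromosome 14 from 30815431 to 30815490 on the plus strand and bta-mir-124b on the minus strand of chromosome 13 (54827558 to 54827618). Each had products of 22 nt (5p) and 20 nt (3p), the latter from the arm known as the main product of mir-124. A 3p product of exactly 20 nt was found at 47 of the 587 bovine loci with both arms (8.01%), and the combination with a 5p product of 22 nt at 16 (2.73%), of which the mir-124 loci were 3. No other neuronal locus in either species had a product of 20 nt. The distances between the products were 17, 15 and 16 nt in the order given, which spanned the median of 16 nt over all bovine loci with both arms.

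The mir-137 locus of the cow, bta-mir-137, lies on chromosome 3 from 45448527 to 45448588 on the plus strand, and its products of 21 nt (5p) and 22 nt (3p) lay 15 nt apart. The mir-153 loci, bta-mir-153-1 on chromosome 2 from 107963036 to 107963099 and bta-mir-153-2 on chromosome 4 from 119541709 to 119541773, both lie on the minus strand. Their 3p products were 22 nt long and 16 nt away from 5p products of 22 and 23 nt. The 2 mir-153 loci were alike but for the 5p product, which was longer by 1 nt at bta-mir-153-2. The span from 5p start to 3p end was therefore 60 nt at bta-mir-153-1 and 61 nt at bta-mir-153-2. Their precursors had 64 and 65 nt.

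For the 6 bovine loci of the families without a feline locus, the 2 nearest bovine loci with a family number, leaving out the ruminant families mir-2284 and mir-2285, were looked up by name in the feline set. Of these 12 neighbours, 7 had a feline locus of the same name and 5 had none. No share of exact names over all bovine loci is given, so this count has no background. Both were called for bta-mir-124b, with bta-mir-133a-1 at 399665 nt and bta-mir-1-1 at 409929 nt, known from muscle, whose feline namesakes lie on NC_018725.2. Both were also called for bta-mir-153-1, with bta-mir-375 at 295451 nt and bta-mir-26b at 829568 nt, whose feline namesakes lie on NC_018730.2. Neither was called for bta-mir-124a-1, whose neighbours bta-mir-2468 and bta-mir-873 lay 3481204 nt and 6006113 nt away. The remaining loci had 1 neighbour with a feline namesake and 1 without, in that order. For bta-mir-124a-2 these were bta-mir-30b at 22730631 nt and bta-mir-30d at 22735069 nt. For bta-mir-153-2 they were bta-mir-671 at 4926718 nt and bta-mir-6525 at 5089771 nt. For bta-mir-137 they were bta-mir-197 at 11483465 nt and bta-mir-760 at 4348510 nt. Neighbours this far away say nothing on calling close to the member. The lookup was by exact name, and the feline set held 7 loci of the mir-30 family. A missing namesake is thus not a missing locus.

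The mir-128 loci, which dampen neuronal excitability, were called under the same names in both species. The locus bta-mir-128-1 occupies 62007761 to 62007823 of chromosome 2 on the minus strand and fca-mir-128-1 on NC_018730.2 from 127577153 to 127577215 on the plus strand. The locus bta-mir-128-2 lies on chromosome 22 from 9738612 to 9738670 on the plus strand and fca-mir-128-2 on NC_018731.2 from 155065644 to 155065702 on the minus strand. Precursor lengths were the same in both species, 63 nt for mir-128-1 and 59 nt for mir-128-2, and all 3p products were 21 nt long.

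The 5p products of mir-128 were 21 nt at both bovine loci and 23 nt at both feline loci. Since the first base of the 5p product and both ends of the 3p product stood at the same places in the precursor, the 2 additional bases lie at the 3′ end of the 5p product. The distance to the 3p product was smaller accordingly, 12 nt against 14 nt for mir-128-1 and 14 nt against 16 nt for mir-128-2. Over all families, 7 of the 133 loci of the same name (5.26%) had a 5p product longer by 2 nt in the cat, the mir-128 loci included. The seed, which is counted from the first base, is not touched by a difference at the other end. The 5p products of human mir-128 printed above have 23 letters for mir-128-1 and 21 for mir-128-2.

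The mir-129 hairpins had long distances between the arms in both species. In the cow bta-mir-129-1 lies on chromosome 4 from 93220891 to 93220961 and bta-mir-129-2 on chromosome 15 from 74545198 to 74545266, and in the cat fca-mir-129-1 lies on NC_018724.2 from 143946096 to 143946162 and fca-mir-129-2 on NC_018732.2 from 96171705 to 96171769, all on the plus strand. The products of mir-129-1 lay 23 nt apart and those of mir-129-2 21 nt apart, in both species alike. Distances of at least 23 nt were found at 8.86% of the 587 bovine and 10.5% of the 325 feline loci with both arms. Those of at least 21 nt were found at 14.0% and 15.1%. The 5p products were 21 nt and the 3p products 22 nt at all 4 loci. The feline precursors were 67 and 65 nt long against 71 and 69 nt in the cow, with 2 nt less outside each of the products at both loci.

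The mir-138 copies, which limit spine size, differed from each other, and not between the species, in the distance between the products. The locus bta-mir-138-1 lies on chromosome 22 from 14870593 to 14870654 and bta-mir-138-2 on chromosome 18 from 24992703 to 24992775, and fca-mir-138-1 lies on NC_018731.2 from 158572006 to 158572071 and fca-mir-138-2 on NC_018737.2 from 33756198 to 33756270, all on the plus strand. The 5p product had 23 nt and the 3p product 21 nt at all 4 loci. Between them lay 17 nt at mir-138-1 and 24 nt at mir-138-2, again alike in cow and cat. The precursor of mir-138-1 was 4 nt longer in the cat, 2 nt on each side, and that of mir-138-2 had 73 nt in both. The distance at mir-138-2 was the longest of the neuronal loci, and 6.64% of the bovine and 8.31% of the feline loci with both arms had one at least as long.

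**Figure D3:**
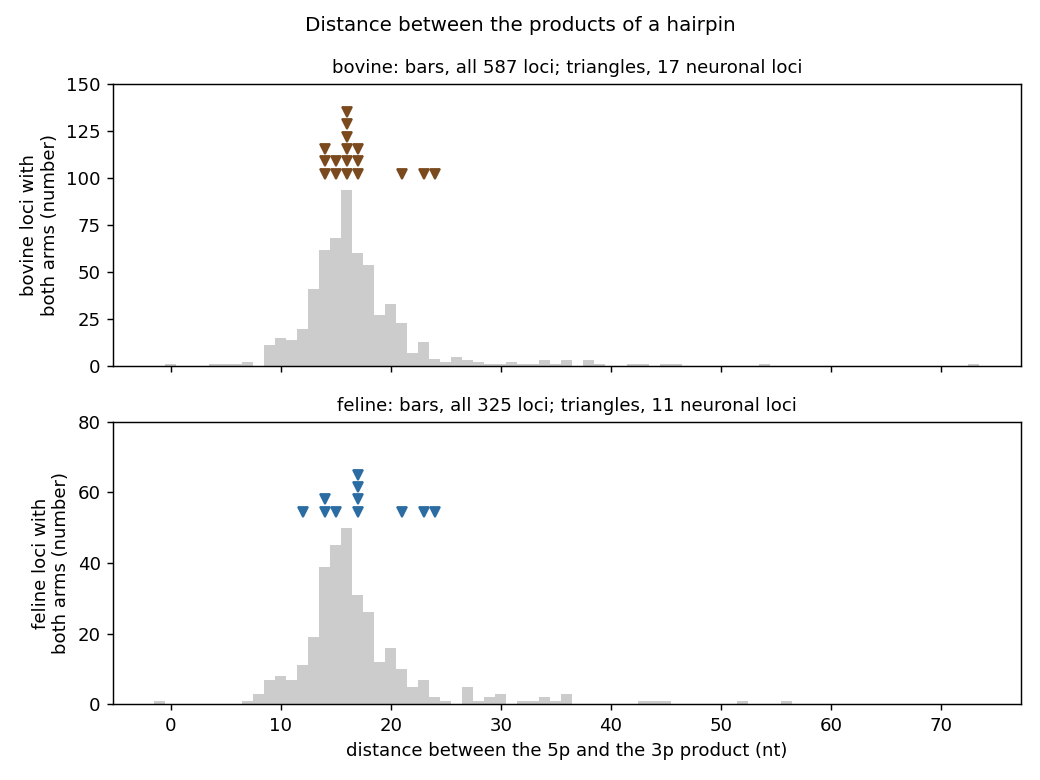
Distance in nt between the 5p and the 3p product of a hairpin (horizontal axis) against the number of loci (vertical axis, grey bars) for all bovine and feline loci with both arms, with a triangle for each neuronal locus, stacked above the bars at its distance with no value on the vertical axis. Most triangles lie over the main peak, and the mir-129 loci at 21 and 23 nt and mir-138-2 at 24 nt lie to its right in both species.

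The median distance over the neuronal loci was 16 nt in the cow (range 14 to 24 nt) and 17 nt in the cat (12 to 24 nt), beside a median of 16 nt over all loci with both arms in each set. Precursors had a median length of 64 nt in the cow (59 to 98 nt) and 66 nt in the cat (59 to 90 nt), against 66 and 65 nt over all loci with both arms. The neuronal hairpins were thus of ordinary size in both sets.

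The mir-132 and mir-212 loci, known as a pair that neuronal activity induces, lay side by side in both species. In the cow bta-mir-212 (23651588 to 23651649) and bta-mir-132 (23651142 to 23651239) lie on the minus strand of chromosome 19, and in the cat the feline mir-212 locus (14704358 to 14704447) and fca-mir-132 (14704821 to 14704884) lie on the plus strand of NC_018736.2. In the direction of transcription mir-212 came first in both. The gap between the precursors was 348 nt in the cow and 373 nt in the cat. Since precursor ends differ between the sets, the distance was also taken between products, and from the last base of the mir-212 3p product to the first of the mir-132 5p product there were 370 nt in the cow and 378 nt in the cat. The whole pair, from the first to the last product base, measured 489 nt and 497 nt.

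**Figure D4:**
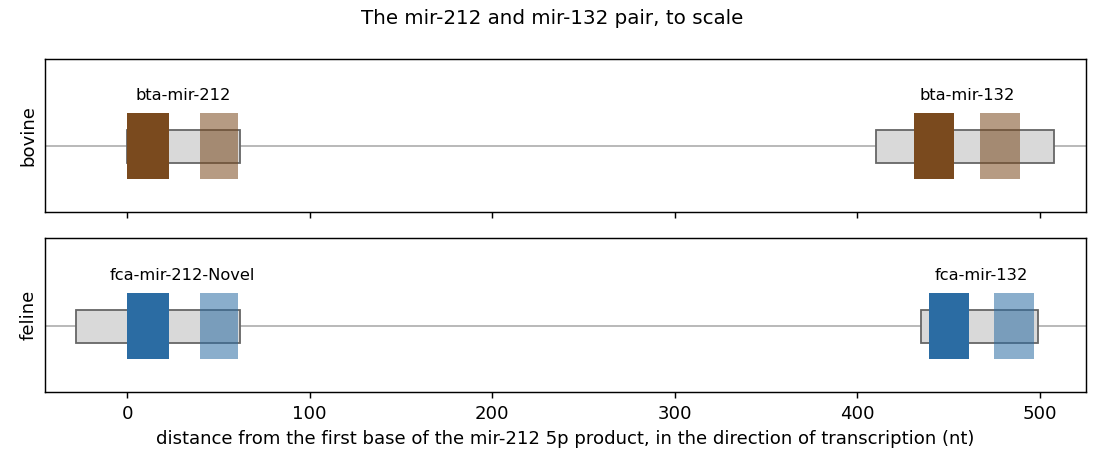
The mir-212 and mir-132 pair of both species to scale, in nt from the first base of the mir-212 5p product in the direction of transcription, with grey boxes for precursors, dark boxes for 5p and pale boxes for 3p products. The pair measures 489 nt in the cow and 497 nt in the cat, and the long precursors are bovine mir-132 and feline mir-212.

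Within the hairpins the products were placed alike. At mir-132 both products had 22 nt, 14 nt apart, in both species. At mir-212 the 5p product had 23 nt and the 3p product 21 nt, 17 nt apart, in both species. The precursors around them were not alike, with 98 nt for bta-mir-132 against 64 nt for fca-mir-132, and 62 nt for bta-mir-212 against 90 nt for feline mir-212. At bta-mir-132 the precursor ran 21 nt beyond the 5p product and 19 nt beyond the 3p product. At feline mir-212 it ran 28 nt beyond the 5p product and 1 nt beyond the 3p product. The feline mir-212 locus carried the mark of a further member, although the feline set had no plain mir-212 name. Its single counterpart in the cow was annotated.

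Taking the 7 loci that bear the same name in both species with mir-212, which had 1 locus in each, there were 8 pairs outside mir-9. In all 8 the span from the first base of the 5p product to the last base of the 3p product was the same, 56 and 58 nt at mir-128, 66 and 64 nt at mir-129, 58 nt at mir-132, 61 and 68 nt at mir-138 and 61 nt at mir-212. The mir-9 loci were left out because no plain name is shared there. Their spans were 59, 61 and 61 nt in the cow and 60, 62 and 62 nt in the cat, with no value in common. The equal spans thus hold only with mir-9 left out. Over all families, 97 of the 133 loci of the same name (72.9%) had equal spans, and the difference was not tested. Precursor length was the same in 3 of the 8 pairs, and in 41.4% of the loci of the same name over all families. The 3p product had the same length in all 8 pairs and the 5p product in 6, the exceptions being those of mir-128. How the copy numbers in the names were given in each species was not examined, and a shared name does not prove a shared origin.

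In the bovine set, 2 of the 17 members lay in a cluster (11.8%, interval 1.46 to 36.4%), a group of loci with gaps of at most 10 kb, against 29.0% of all bovine loci. In the feline set, 2 of 11 did (18.2%, interval 2.28 to 51.8%), against 33.3% of all feline loci. In each species these were mir-132 and mir-212. The other 15 bovine and 9 feline members stood alone, and the median distance of a member to the nearest predicted locus was 909415 nt in the cow and 906152 nt in the cat, beside 315270 nt over all bovine loci and 288847 nt over the 487 feline loci with another locus on their sequence. The nearest locus to a member outside the pair was bta-mir-670, 25829 nt from bta-mir-129-2 on the same strand, and fca-Novel140, 37946 nt from fca-mir-9-Novel2.

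Farther neighbours of some members were shared between the species. Of the 11 bovine members of the families called in both, 6 had a neighbour within 5 Mb whose family also lay within 5 Mb of a feline member of theirs, and 5 had none (bta-mir-9-1, bta-mir-128-1, bta-mir-129-2, bta-mir-138-1 and bta-mir-138-2). Among the 6, bta-mir-132 and bta-mir-212 lie side by side, have the same farther neighbours and count each other. No such share is given over all bovine loci, so whether 6 of 11 is usual is not known. The mir-212 and mir-132 pair had mir-22 on the same strand, 268632 nt from bta-mir-132 and 288847 nt from fca-mir-132. The mir-129-1 locus lay on the opposite strand to mir-592, at 1094006 nt in the cow and 1060333 nt in the cat, and to the sensory microRNAs mir-182, mir-96 and mir-183, of which mir-182 was 1185758 nt and 1124040 nt away. The mir-128-2 locus lay 1719241 nt from mir-26a-1 in the cow and 1825613 nt in the cat. In these cases the strands were related in the same way in both species. At mir-138-1, beyond that limit in part, they were not. The locus bta-mir-138-1 lay on the same strand as bta-mir-26a-1 at 3412614 nt and bta-mir-128-2 at 5131922 nt, while fca-mir-138-1 lay on the opposite strand to fca-mir-26a-1 at 5331975 nt and fca-mir-128-2 at 3506303 nt. Also beyond the limit, mir-328 lay on the opposite strand to mir-138-2 in both species, at 9964829 nt in the cow and 8864215 nt in the cat.

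All 16 bovine members with a plain name matched a RefSeq microRNA gene by name, and there was no further RefSeq gene of these families, so 16 of 16 were called. Over all families, 398 of the 1021 RefSeq bovine microRNA genes with such a name were called, which is 39.0%. The difference was not tested, and the 9 families were chosen with earlier results of these data known. The RefSeq table belongs to another assembly (ARS-UCD2.0), and it was used for names, lengths and neighbouring genes alone. Every called member was shorter than the RefSeq hairpin of its name, by 1 to 51 nt with a median of 24.5 nt, against 76.1% of the 398 matched loci of all families. The difference was smallest for bta-mir-129-1 (71 against 72 nt) and bta-mir-132 (98 against 101 nt) and largest for bta-mir-124a-2 (60 against 111 nt).

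Of the 16 RefSeq genes, 4 lie within a protein-coding gene. These are MIR128-1 in R3HDM1, MIR128-2 in ARPP21, a gene of phosphoproteins of neurons, MIR153-1 in PTPRN and MIR153-2 in PTPRN2, which code for proteins of dense-core vesicles. The mir-153 hosts are related genes. A further 3 lie within a long non-coding RNA gene, namely MIR9-2 in LOC100616526, MIR124A-1 in LOC132345921 and MIR138-1 in LOC132343486. Strand is not given in that table, so whether a microRNA and its host are transcribed together is not shown.

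The remaining 9 genes lie between genes. MIR132 and MIR212 have DPH1 and HIC1 as the nearest protein-coding genes, MIR9-1 has POLG and RHCG, and MIR137 has SNX7 and DPYD. MIR124A-2 lies between YTHDF3 and BHLHE22, a transcription factor of neurons, and MIR124B lies beside YTHDF1. Within its non-coding gene, MIR9-2 has TMEM161B and MEF2C, a transcription factor of neurons and muscle, on its sides. MIR129-1 lies between SND1 and LEP, the leptin gene, MIR129-2 between TTC17 and HSD17B12, and MIR138-2 between NUP93 and SLC12A3. The bovine mir-9 locus on chromosome 3 has no RefSeq gene of its name, so its neighbouring genes were not looked up.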

How the data were processed

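Small RNA of the 14 libraries was sequenced by the study on a HiSeq instrument after TruSeq library preparation. The authors trimmed reads with cutadapt (1.15) and aligned them with Bowtie (1.2.11), versions per the submitters' processing notes, gave reads with several best positions in fractions, and ran miRWoods once per species on the pooled libraries to call precursors and products. The deposited values are starts and ends in bases counted from 1, with strand and name. In these sets no read number or score comes with a locus. The study lists read counts of mature products in a supplementary table. These counts were not used here, so the depth behind a locus was not examined. The feline sequences carry versioned RefSeq names, which fix their assembly, while the bovine ones are plain chromosome names, and no assembly name for either was found in the sources used. Bovine names come from miRBase, and homologous loci were named by the study from products with the seed of a known microRNA, so the family of a further member is not independent of its product.

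From the positions, the lengths of precursors, products and the distance between products were computed with Python 3.11.15 and scipy 1.17.1. Clusters join loci with gaps of at most 10 kb on either strand, as in the study. Shares carry 95% exact (Clopper-Pearson) intervals. No test was made, because a species is represented by 1 list of loci without replicates. All members are described, other loci where they lie near one or share its name. Members and lists were chosen with earlier results of these data known, and the search for farther neighbours reached 5 Mb. The grouping and the distances were tested on simulated lists, and all 50 simulated lists of loci were recovered. RefSeq genes were matched by name. The letters of human mir-124 products are not reported here.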

Additional observations from a re-analysis of the deposited data

How the results depend on the processing

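Of 27 alternatives over 13 results, 25 left the value within the spread set for it, which is 1.5 times for a count and 1 SD over loci for a length. Some of the 25 could not move a value. These kept only products of 20 to 24 nt or only loci with both arms, which all members already met. The 25 are therefore no measure of how stable the results are. With plain names alone, the feline members fell from 11 to 7, and those with both arms also to 7, since mir-9 and mir-212 had no plain feline name. With antisense names counted, no member was added in either species. With gaps of up to 50 kb, 3 members instead of 2 lay in clusters in each species, bta-mir-129-2 in the cow and fca-mir-9-Novel2 in the cat being the additions, while 1 kb, 5 kb, the same strand or distances between centres left 2. The change from 2 to 3 lies on the limit of 1.5 times and was counted as within it. Leaving out 1 pair, mir-212 with its further-member name (an alternative chosen after seeing the data), left 7 of 7 pairs outside mir-9 with equal spans. With equal spans in all 8 pairs, no other outcome was possible. No paired analysis was made and no library was left out, because the sets of loci hold no value per library. Read numbers, which were not used here, would be needed to compare tissues or arms.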
